A study of Mus musculus with 2 samples.

Results

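The genes described here are the 20 semaphorins, 9 plexins, 2 neuropilins and 5 collapsin response mediators of the mouse, 36 of the 43346 mouse genes in the tables, chosen by symbol through the annotation and not by their values. They were measured in the forebrain of B6NCrl mouse embryos at embryonic day 13.5, male and female pooled and recorded as healthy, in 2 libraries made from 10 ng of total RNA each with spike-in RNA added. The labels call the libraries biological replicates but give both the same donor code, so the spread between them may be partly technical. They form 1 group with no treatment, mutant or other tissue, so the results are levels, ratios between genes within a library, and differences between replicate 1 and replicate 2. With 2 libraries the smallest exact two-sided p is 0.5, and no significance test was run.

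Semaphorins are ligands with a shared sema domain that steer growing axons and migrating cells. Class 3 members are secreted, classes 4 to 6 span the membrane, and class 7 is held by a lipid anchor. Plexins are their main receptors and act inside the cell on small GTPases of the Ras and Rap families. Most class 3 ligands do not bind plexins directly and need a neuropilin, which binds the ligand while a plexin of the A group passes the signal on. Collapsin response mediators are cytoplasmic proteins that bind tubulin and were first linked to the growth cone collapse that Sema3a causes, and Cdk5 and Gsk3b phosphorylate them. In the embryonic forebrain these genes are known for guiding cortical axons, interneuron migration and vessel growth.

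The 2 libraries held 35378462 and 36793284 estimated counts in replicates 1 and 2. All 5 forebrain markers averaged between 63.9 and 233.9 TPM (relative abundance per transcript length, scaled to a fixed sum in each library), and 0 of 5 midbrain, hindbrain and spinal cord markers reached 1 TPM. Markers of progenitors and neurons were present, as were all 5 of endothelium and all 5 of microglia. Their summed levels in replicates 1 and 2 were 75.4 and 80.6 TPM for endothelium and 37.9 and 39.9 TPM for microglia. Of 5 pericyte and meninges markers, 4 reached 1 TPM in both libraries. Their summed level was higher, at 123.1 and 126.9 TPM, of which Col3a1 gave 81.0 and 84.7 TPM. The summed level of 5 choroid plexus markers was 470.4 and 245.7 TPM in replicates 1 and 2, mostly from Ttr. In such a tissue sample, fewer cells expressing a gene and less RNA of it per cell cannot be told apart.

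Promoters are shown for Crmp1 and Sema4c, each with 2 promoters, whose transcript shares are compared between starts below. They are also shown for Plxnb2 and Plxnb3, the highest and the lowest plexin. Each runs from 250 bases before to 50 bases after a transcription start in RefSeq on GRCm38.p6, read 5′ to 3′ on the gene's strand. Capitals mark the GC box GGGCGG or its reverse complement CCGCCC.
Crmp1 promoter at chr5:37241808-37242107 (plus strand): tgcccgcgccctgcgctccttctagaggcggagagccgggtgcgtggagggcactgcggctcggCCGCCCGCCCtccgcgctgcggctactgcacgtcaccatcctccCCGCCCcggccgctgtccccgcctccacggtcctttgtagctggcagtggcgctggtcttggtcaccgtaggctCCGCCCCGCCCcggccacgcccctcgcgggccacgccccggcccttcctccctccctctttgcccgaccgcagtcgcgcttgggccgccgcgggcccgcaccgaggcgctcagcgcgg
Crmp1 promoter at chr5:37245514-37245813 (plus strand): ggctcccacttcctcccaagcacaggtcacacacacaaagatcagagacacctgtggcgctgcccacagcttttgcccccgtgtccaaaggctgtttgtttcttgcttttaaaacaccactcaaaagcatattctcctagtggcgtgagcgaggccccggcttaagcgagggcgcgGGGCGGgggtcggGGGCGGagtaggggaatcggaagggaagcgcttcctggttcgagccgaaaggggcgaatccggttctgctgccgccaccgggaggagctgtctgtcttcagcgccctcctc
Sema4c promoter at chr1:36558332-36558631 (minus strand): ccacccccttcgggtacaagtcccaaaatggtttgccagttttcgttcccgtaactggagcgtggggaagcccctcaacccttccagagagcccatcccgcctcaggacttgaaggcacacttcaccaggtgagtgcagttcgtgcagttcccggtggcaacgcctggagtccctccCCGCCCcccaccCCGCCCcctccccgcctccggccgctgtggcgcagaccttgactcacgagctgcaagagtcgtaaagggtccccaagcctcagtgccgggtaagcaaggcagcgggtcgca
Sema4c promoter at chr1:36557508-36557807 (minus strand): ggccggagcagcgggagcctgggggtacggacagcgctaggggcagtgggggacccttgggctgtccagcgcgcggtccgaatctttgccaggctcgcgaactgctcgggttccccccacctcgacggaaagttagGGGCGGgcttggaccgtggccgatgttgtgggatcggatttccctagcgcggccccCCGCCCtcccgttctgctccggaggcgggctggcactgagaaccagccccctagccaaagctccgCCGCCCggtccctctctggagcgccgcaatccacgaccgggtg
Plxnb2 promoter at chr15:89180739-89181038 (minus strand): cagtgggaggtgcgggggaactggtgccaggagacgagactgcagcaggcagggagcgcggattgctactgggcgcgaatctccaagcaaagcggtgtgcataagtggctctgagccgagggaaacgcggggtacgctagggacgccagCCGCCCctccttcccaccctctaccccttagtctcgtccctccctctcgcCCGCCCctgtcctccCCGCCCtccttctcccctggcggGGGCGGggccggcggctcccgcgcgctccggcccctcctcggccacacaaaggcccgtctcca
Plxnb3 promoter at chrX:73756853-73757152 (plus strand): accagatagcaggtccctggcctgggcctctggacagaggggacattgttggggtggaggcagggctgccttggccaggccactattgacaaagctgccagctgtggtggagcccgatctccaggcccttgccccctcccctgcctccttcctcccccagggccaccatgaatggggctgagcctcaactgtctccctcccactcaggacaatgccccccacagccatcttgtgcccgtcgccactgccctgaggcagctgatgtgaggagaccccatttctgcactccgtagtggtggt
The first Crmp1 promoter holds 41 CpG dinucleotides and 5 GC boxes, and its RefSeq start lies 22 bases from that of the transcript Crmp1-202. The second Crmp1 promoter holds 20 CpG dinucleotides and 2 GC boxes, and its start is that of Crmp1-201. The Sema4c promoters hold 19 and 30 CpG dinucleotides with 2 and 3 GC boxes. The printed Plxnb2 promoter holds 27 CpG dinucleotides and 4 GC boxes. Another Plxnb2 promoter, not printed (chr15:89173902-89174201), holds 15 CpG dinucleotides and 3 GC boxes. The Plxnb3 promoter holds 4 CpG dinucleotides and no GC box.

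Most of the family was present. Of the 36 genes, 31 (86.1%) stood at 1 TPM or more in both libraries, against 59.0% of all 21474 protein-coding genes and 34.1% of all 42462 annotated mouse genes. At 10 TPM or more stood 22, against 38.9% of protein-coding genes. Their median level was 13.4 TPM, against 3.92 TPM over all protein-coding genes. The secreted semaphorins Sema3d, Sema3e and Sema3g and the receptor Plxnb3 were under 1 TPM in both libraries. Sema7a was above 1 TPM in replicate 2 only. The summed level of the family was 2643 and 2436 TPM in replicates 1 and 2, and the collapsin response mediators held 80.2% of it, the plexins 9.52%, the semaphorins 8.46% and the neuropilins 1.87%.

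**Figure D1:**
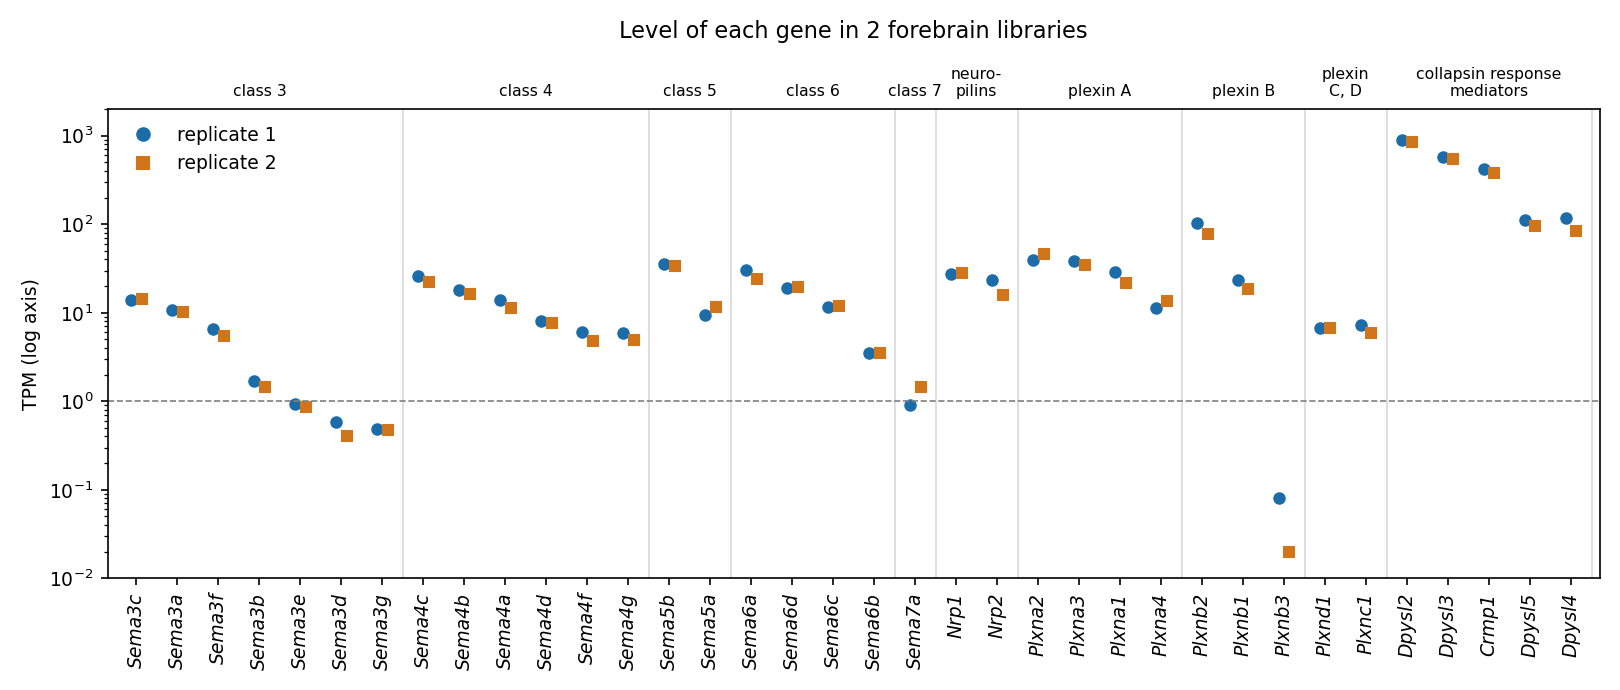
Level of each of the 36 genes in TPM on a log axis, grouped by class and ordered by mean within a class. Circles are replicate 1, squares are replicate 2, and the dashed line is 1 TPM. The 5 collapsin response mediators lie above every semaphorin in both libraries, and Plxnb3 lies lowest of the plexins.

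Among the secreted class 3 semaphorins, 3 genes carried most of the level and 3 were barely present. Sema3c, which in the mouse attracts callosal axons of the cortex, had 14.0 and 14.3 TPM in replicates 1 and 2 (14.2 ± 0.226, SD, n = 2; chr5:17574281-17730268 on mm10, the build of all gene positions here). Sema3a, a repellent of cortical and sensory axons that binds Nrp1, had 10.7 and 10.1 TPM in replicates 1 and 2 (10.4 ± 0.396, SD, n = 2; chr5:13125414-13602565). Sema3f, a repellent that binds Nrp2, had 6.47 and 5.51 TPM (5.99 ± 0.679, SD, n = 2). The libraries of Sema3c, Sema3a and Sema3f did not overlap, so the order Sema3c, Sema3a, Sema3f held in both for whole genes. Over coding transcripts only, Sema3a at 10.7 and 10.1 TPM stood above Sema3c at 7.70 and 8.07 TPM. Sema3b followed at 1.71 and 1.46 TPM, from 77 and 78 estimated counts.

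Sema3e, a ligand that binds Plxnd1 without a neuropilin, had 0.92 and 0.87 TPM in replicates 1 and 2. Sema3d had 0.58 and 0.41 TPM, from 83 and 64 estimated counts. Sema3g was the lowest semaphorin at 0.48 and 0.47 TPM, from 47 and 51 estimated counts. Sema3d and Sema3g could not be ordered because their libraries overlapped, while Sema3e stood above both. The class as a whole had 4 of 7 members at 1 TPM, a median of 1.59 ± 0.177 TPM (SD over library medians, n = 2), and a summed level of 34.8 and 33.2 TPM in replicates 1 and 2. The class level was 2.92 TPM by the authors' posterior mean estimate and 2.87 TPM as a geometric mean over members.

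The class 4 semaphorins, which span the membrane and mostly signal through B plexins, were all present, 6 of 6 at 1 TPM in both libraries, with a median of 10.2 TPM. Sema4c, a ligand of Plxnb2, led at 25.8 and 22.4 TPM in replicates 1 and 2 (24.1 ± 2.38, SD, n = 2; chr1:36548639-36558349). Sema4b came next at 18.2 and 16.4 TPM (17.3 ± 1.27, SD, n = 2). Sema4a, known for roles in the retina and in immune cells, had 14.0 and 11.2 TPM. These 3 genes did not overlap one another between libraries. Sema4d, a ligand of Plxnb1 also known from lymphocytes, had 8.04 and 7.74 TPM. Sema4f had 6.09 and 4.80 TPM, and Sema4g, which in the mouse also acts through Plxnb2, had 5.94 and 4.95 TPM. Sema4f and Sema4g had the same mean, 5.45 TPM, and were the lowest of the class.

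The class 5 semaphorins, which carry thrombospondin repeats beside the sema domain, differed from each other by more than their libraries did. Sema5b was the highest semaphorin by whole-gene level at 35.2 and 33.6 TPM in replicates 1 and 2 (34.4 ± 1.11, SD, n = 2; chr16:35541145-35664732). Sema5a had 9.34 and 11.7 TPM (10.5 ± 1.65, SD, n = 2), with the higher value in replicate 2.

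The class 6 semaphorins bind A plexins without a neuropilin and had 4 of 4 members at 1 TPM, with a median of 15.5 ± 0.421 TPM (SD over library medians, n = 2). Sema6a, which in the mouse acts on thalamocortical axons and binds Plxna2 and Plxna4, had 30.7 and 23.9 TPM in replicates 1 and 2 (27.3 ± 4.82, SD, n = 2). Sema6d, a ligand of Plxna1, had 18.8 and 19.8 TPM (19.3 ± 0.679, SD, n = 2). Sema6c had 11.7 and 11.9 TPM, and Sema6b, a ligand of Plxna4, was lowest at 3.54 and 3.48 TPM. The 4 genes kept this order in both libraries for whole genes. Over coding transcripts only, Sema6d at 14.8 and 16.9 TPM stood above Sema6a at 13.9 and 11.1 TPM, and the class median was 9.52 TPM. Sema7a, the lipid-anchored member that binds Plxnc1 and integrin beta 1, had 0.91 and 1.46 TPM, from 65 and 113 estimated counts.

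Ordered by mean TPM, the 20 semaphorins ran down from Sema5b through Sema6a, Sema4c, Sema6d, Sema4b, Sema3c, Sema4a, Sema6c, Sema5a and Sema3a. Then came Sema4d, Sema3f, Sema4f, Sema4g, Sema6b, Sema3b, Sema7a, Sema3e, Sema3d and Sema3g. Of the 19 neighbouring pairs in that order, 10 did not overlap between libraries and 9 did. Sema6a and Sema4c overlapped near the top. Sema4a, Sema6c, Sema5a and Sema3a also formed a run in which each gene overlapped the next.

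Both neuropilins, the receptors for class 3 semaphorins and also for some forms of Vegfa, were well above 10 TPM. Nrp1 had 27.3 and 28.3 TPM in replicates 1 and 2 (27.8 ± 0.672, SD, n = 2; chr8:128358604-128503363). Nrp2 had 23.7 and 16.0 TPM (19.8 ± 5.44, SD, n = 2; chr1:62703285-62818695). Nrp1 was the higher in each library, by 0.21 on the log2 scale of TPM in replicate 1 and 0.82 in replicate 2. Its own values nearly coincided, while those of Nrp2 were the widest apart of any well-counted member.

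Plexins of the A group, the partners of neuropilins and the direct receptors of class 5 and 6 semaphorins, had 4 of 4 members above 10 TPM in both libraries. Plxna2 had 39.4 and 45.8 TPM in replicates 1 and 2 (42.6 ± 4.47, SD, n = 2; chr1:194618218-194816869). Plxna3, on the X chromosome, had 38.8 and 34.8 TPM (36.8 ± 2.84, SD, n = 2; chrX:74329066-74344689). Plxna1 had 28.7 and 21.8 TPM (25.3 ± 4.89, SD, n = 2), and Plxna4 had 11.3 and 13.6 TPM (12.4 ± 1.69, SD, n = 2). No 2 of the 4 overlapped, and the order Plxna2, Plxna3, Plxna1, Plxna4 held in both libraries for whole genes. Over coding transcripts only, Plxna3 at 20.5 and 16.9 TPM stood below Plxna1 at 28.7 and 21.8 TPM.

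The B plexins, receptors of class 4 semaphorins, held both the highest and the lowest receptor. Plxnb2, needed in the mouse for neural tube closure and for cerebellar granule cell migration, was the highest receptor at 103.1 and 77.7 TPM in replicates 1 and 2 (90.4 ± 17.9, SD, n = 2; chr15:89155549-89180788). By whole-gene level it stood above 91.5% of protein-coding genes. Its coding transcripts came to 50.5 and 40.0 TPM in replicates 1 and 2, and no such rank was taken on that scale. Plxnb1 had 23.4 and 18.4 TPM (20.9 ± 3.48, SD, n = 2). Plxnb3, known from oligodendrocytes, had 0.08 and 0.02 TPM, from 9 and 3 estimated counts (chrX:73757090-73772514). The value of 3 counts, which a count of 0 still allows, came to 0.027 and 0.020 TPM in replicates 1 and 2, so Plxnb3 was at that limit in replicate 2. The 9 counts of replicate 1 were assigned to a retained-intron transcript and the 3 of replicate 2 to the coding transcript Plxnb3-201. Markers of the oligodendrocyte lineage were low as a group, with Sox10 at 0.41 and 0.38 TPM, and their part in the level of Plxnb3 was not tested.

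Plxnd1, a receptor of endothelial cells and of some neurons, had 6.73 and 6.68 TPM in replicates 1 and 2 (6.71 ± 0.0354, SD, n = 2). Plxnc1, the receptor of Sema7a, had 7.24 and 5.96 TPM (6.60 ± 0.905, SD, n = 2). The values of Plxnd1 lay within those of Plxnc1, so the pair could not be ordered. Over the 9 plexins, 6 of the 8 neighbouring pairs by mean TPM did not overlap, and the other overlap was between Plxna1 and Plxnb1.

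The collapsin response mediators were the most abundant group, 5 of 5 at 10 TPM or more, with a median of 400.2 ± 26.6 TPM (SD over library medians, n = 2). Dpysl2, which binds tubulin dimers and promotes axon outgrowth, had 889 and 854 TPM in replicates 1 and 2 (871 ± 24.5, SD, n = 2; chr14:66802864-66868688). This placed it above 99.6% of protein-coding genes. Dpysl3 had 574 and 546 TPM (560.1 ± 19.9, SD, n = 2), and Crmp1, which takes part in Sema3a signalling, had 419 and 381 TPM (400.2 ± 26.6, SD, n = 2; chr5:37241940-37292133). Dpysl5 had 112.1 and 96.3 TPM (104.2 ± 11.2, SD, n = 2), and Dpysl4 had 116.1 and 83.3 TPM (99.7 ± 23.2, SD, n = 2). The first 3 did not overlap one another or the last 2, while Dpysl5 and Dpysl4 overlapped. The neuron markers Tubb3 and Dcx averaged 1116 and 164.1 TPM in the same libraries.

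Differences between the classes were taken within each library on the log2(TPM + 1) scale, as the median of one class less the median of the other. The median receptor, neuropilins and plexins together, was 23.7 and 18.4 TPM in replicates 1 and 2, and the median semaphorin was 8.69 and 8.94 TPM. The difference was 1.17 ± 0.26 (SD, n = 2). Both libraries thus placed the typical receptor above the typical ligand.

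Semaphorins held at the membrane, classes 4 to 7, had a median of 11.7 TPM in each library, and secreted semaphorins had medians of 1.71 and 1.46 TPM in replicates 1 and 2. The difference of 2.30 ± 0.099 log2 units (SD, n = 2) came down to 0.57 when only genes at 1 TPM or more in both libraries were compared, which leaves out the 3 lowest secreted genes and Sema7a. The median collapsin response mediator, 419 and 381 TPM in replicates 1 and 2, was above the median receptor by 4.19 ± 0.15 log2 units (SD, n = 2).

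The A and B plexins had medians of 33.8 and 28.3 TPM for A against 23.4 and 18.4 TPM for B, in replicates 1 and 2. Their difference was 0.53 ± 0.041 log2 units (SD, n = 2), but it depended on Plxnb3. With Plxnb3 left out by the 1 TPM limit, it was -0.50, with the B group higher, since the remaining B plexins are Plxnb1 and Plxnb2. The summed levels of whole genes were 118.2 and 116.0 TPM for the A group and 126.5 and 96.2 TPM for the B group. Over coding transcripts only, the sums were 94.75 and 91.25 TPM for the A group in replicates 1 and 2. Those of the B group were 71.88 and 56.63 TPM, so the A group was higher in both libraries on that scale.

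In 12 pairs a receptor was set beside a ligand known to act through it, as the log2 ratio of TPM of the receptor over the ligand in the same library. Some genes, such as Nrp2 and Sema6a, stand in 2 pairs, so the pairs are not independent. In 11 of 12 pairs the receptor was the higher in both libraries. The 12 are a selection of known pairs, and none includes Plxnb3, at 0.08 and 0.02 TPM in replicates 1 and 2. The median receptor was in any case above the median semaphorin, at 23.7 and 18.4 TPM against 8.69 and 8.94 TPM. The share over all combinations of receptor and ligand was not taken.

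**Figure D2:**
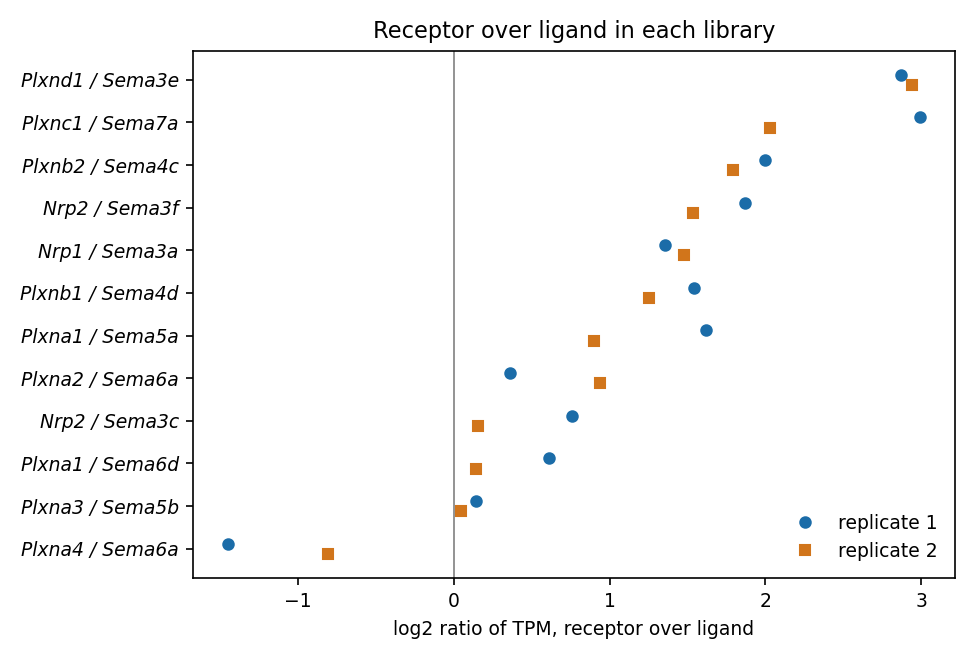
Log2 ratio of TPM of a receptor over its ligand for 12 pairs, ordered by mean. Circles are replicate 1, squares are replicate 2, and the line at 0 marks equal levels. Of the 12 pairs, 11 lie to the right of the line in both libraries and Plxna4 over Sema6a lies to its left.

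For the class 3 ligands, Nrp1 stood above Sema3a by 1.42 ± 0.090 log2 units (SD, n = 2), which is 2.67-fold. Nrp2 stood above Sema3f by 1.70 ± 0.24 and above Sema3c by 0.46 ± 0.42 (SD, n = 2). In the last pair the receptor at 16.0 TPM was close to the ligand at 14.3 TPM in replicate 2. Plxnd1 stood above Sema3e by 2.91 ± 0.049 log2 units (SD, n = 2), the widest gap of the 12, with the ligand under 1 TPM. These 4 pairs had no overlap between receptor and ligand values.

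For the membrane ligands, Plxnb2 stood above Sema4c by 1.90 ± 0.15 log2 units and Plxnb1 above Sema4d by 1.40 ± 0.20 (SD, n = 2). Plxna1 stood above Sema5a by 1.26 ± 0.51, and Plxna3 above Sema5b by only 0.095 ± 0.065 (SD, n = 2). The values of Plxna3 and Sema5b overlapped across libraries, so their levels could not be told apart. Plxnc1 stood above Sema7a by 2.51 ± 0.68 log2 units (SD, n = 2), with the ligand at 65 and 113 estimated counts.

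The class 6 pairs divided by receptor. Plxna2 stood above Sema6a by 0.65 ± 0.41 log2 units and Plxna1 above Sema6d by 0.38 ± 0.33 (SD, n = 2). Plxna4 had 11.3 and 13.6 TPM in replicates 1 and 2, against 30.7 and 23.9 TPM for Sema6a, a ratio of -1.13 ± 0.45 (SD, n = 2). This was the pair in which the ligand exceeded the receptor, 2.19-fold, on the levels of whole genes.

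The TPM of a gene is the sum over its annotated transcripts, and these were not all protein-coding. Over the 32 members with a mean of at least 1 TPM, the median share of TPM in coding transcripts was 90.4%, against 97.7% over 12893 protein-coding genes above the same mean. In 15 members the share was over 95%, among them Sema3a, Nrp1, Plxna1, Plxna4, Plxnd1, Dpysl2, Dpysl3 and Crmp1. In 8 members it was under 70%. The mean shares were 45.8% for Sema6a, 50.2% for Plxnb2, 50.7% for Plxna3, 55.7% for Sema6c and for Sema3c, 64.6% for Sema5b, 68.4% for Sema3f and 68.6% for Sema4a.

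**Figure D3:**
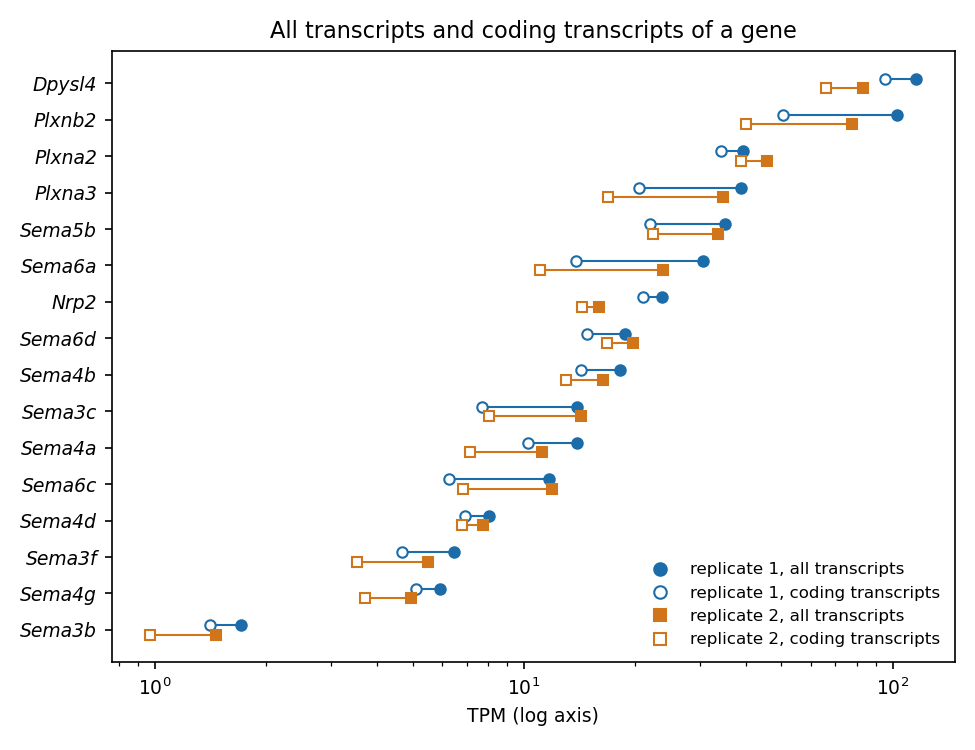
TPM of 16 genes with under 90% of their TPM in coding transcripts, on a log axis, ordered by mean. Filled symbols are all transcripts of the gene, open symbols are its coding transcripts, circles are replicate 1 and squares are replicate 2. The gap between filled and open symbols is widest for Sema6a, Plxnb2 and Plxna3, and Plxnb2 remains above Plxna2 in both libraries.

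Counting coding transcripts only, an alternative chosen after these values were seen, lowered Plxnb2 to 50.5 and 40.0 TPM in replicates 1 and 2, still the highest plexin ahead of Plxna2 at 34.3 and 38.9 TPM. Plxna3 came to 20.5 and 16.9 TPM on this scale, below Plxna1 at 28.7 and 21.8 TPM. Sema4c, at 24.8 and 21.3 TPM, had the highest mean of the semaphorins on this scale, ahead of Sema5b at 22.0 and 22.4 TPM, but the libraries of the pair overlapped. On this scale Plxna4 had 11.3 and 13.6 TPM and Sema6a had 13.9 and 11.1 TPM in replicates 1 and 2. Sema6a was thus the higher in replicate 1 and Plxna4 in replicate 2, and the mean log2 ratio was -0.00056. The ratio of Plxna3 over Sema5b was -0.25. The excess of Plxnb2 over Sema4c narrowed to 0.97 log2 units. The receptor was higher in both libraries in 10 of 12 pairs.

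In 21 of the 32 members a coding transcript held at least 50% of the TPM in both libraries. In 5 the second transcript held at least 20% in both, namely Dpysl5, Plxnb2, Sema3c, Sema4c and Sema6a. By share of estimated counts 3 genes passed, Dpysl3, Dpysl5 and Sema4c, and with either library left out 8 passed by share of TPM. In the other 27 members the mean share of the first transcript ran from 27.3% to 100%, and in 7 members a single transcript held 99% or more in both libraries, Dpysl2 among them.

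Plxnb2 was divided between its full coding transcript Plxnb2-202 (6377 bases), with 46.7% and 49.3% of TPM in replicates 1 and 2, and Plxnb2-205, with 43.4% and 44.8%. Plxnb2-205 is a processed transcript of 841 bases at the 3′ end of the gene (chr15:89155549-89156572). By estimated counts, which are not divided by length, Plxnb2-205 held 9.36% and 9.28% of the gene. Most reads of the gene therefore counted towards the coding transcript, although the short one holds nearly as much TPM.

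Sema6a was divided more evenly. Its first coding transcript Sema6a-201 held 24.8% and 29.9% of TPM in replicates 1 and 2, and the retained-intron transcripts Sema6a-208 and Sema6a-209 held 25.7% and 21.1%, and 24.1% and 21.5%. By estimated counts, Sema6a-201 held 46.3% and 52.6%. In Sema3c the coding Sema3c-201 held 55.0% and 53.7% of TPM, and the retained-intron Sema3c-205 held 31.8% and 34.4%. Dpysl5 was shared by 2 coding transcripts, Dpysl5-203 at 54.6% and 55.8% and Dpysl5-201 at 38.8% in each library.

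In Sema4c the coding transcripts Sema4c-201 and Sema4c-203 held 32.8% and 38.0%, and 25.1% and 26.7% of TPM in replicates 1 and 2. They share the start at position 36558349 of chromosome 1, 32 bases from the RefSeq start of the first Sema4c promoter printed above, and together held 57.9% and 64.7%. Sema4c-208, which begins at position 36557557 at the second printed promoter, held 23.7% and 15.3%. The upstream start thus held the larger share in both libraries.

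Crmp1, Dpysl3, Dpysl4 and Nrp2 fell outside the 20% limit and were picked with their values known, because their coding transcripts differ in where they begin or end. Crmp1-201, which begins at position 37245764 of chromosome 5, held 85.1% and 85.9% of TPM in replicates 1 and 2, and Crmp1-202, which begins at 37242080, held 14.9% and 14.1% (SD 0.593 percentage points, n = 2). The promoter next to the minor start is the one with 41 CpG dinucleotides, and that next to the major start has 20. Dpysl3-201 held 65.4% and 69.8%, Dpysl3-202 held 19.5% and 16.0%, and Dpysl3-204 held 14.9% and 14.0%, each from its own start. Dpysl4-202 held 60.2% and 63.1%. Nrp2-204 led Nrp2 with 43.5% and 47.5%, and Nrp2-201, whose annotated end lies upstream of that of Nrp2-204, held 16.1% and 23.5%.

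A few shares differed widely between libraries, and these too were picked with their values known. Sema4g-203 held 37.0% of TPM in replicate 1 and none in replicate 2, while the level of Sema4g as a whole was 5.94 and 4.95 TPM. Sema4a-214 held 34.2% and 10.3%, and Sema3b-204 held 57.1% and 0%. The gene counts behind them were 575 and 534 for Sema4g, 766 and 656 for Sema4a, and 77 and 78 for Sema3b. Gene levels of the 3 differed between libraries by less than these shares did.

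**Figure D4:**
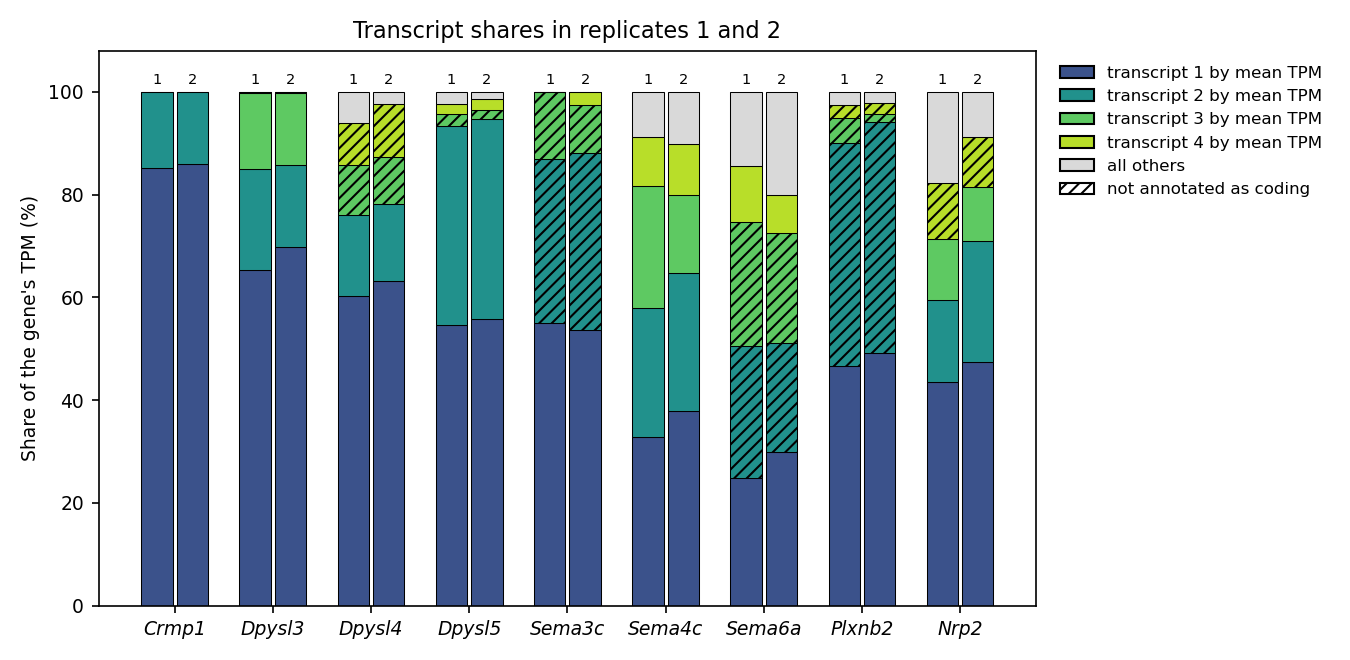
Share of a gene's TPM (%) held by its 4 leading transcripts and by all others, for 9 genes, with replicate 1 as the left bar and replicate 2 as the right bar of each pair. Hatching marks transcripts not annotated as coding. Hatched parts take a large share in Sema3c, Sema6a and Plxnb2, while Crmp1, Dpysl3 and Sema4c consist of coding transcripts in their leading parts.

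RefSeq promoters were matched to 28 of the 36 members, 40 promoters in all, and 8 members had none in the table used (Sema3b, Sema3f, Sema6a, Plxna1, Plxna4, Dpysl2, Dpysl3 and Dpysl4). The median member promoter held 18.5 CpG dinucleotides and 63.2% G and C, against 7 and 52.7% over all 32851 promoters of the same 300 bases. The GC box, searched as GGGCGG on both strands, was present in 30 of 40 member promoters (75.0%), against 35.7% of all promoters. The CCAAT box was present in 7 (17.5%, against 37.4%), TATAAA in 0 (against 13.6%) and the E box CAGCTG, which reads the same on both strands, in 6 (15.0%, against 16.3%). The 4 promoters of members under 1 TPM, those of Sema3d, Sema3e, Sema3g and Plxnb3, held a median of 8 CpG dinucleotides (range 4 to 11). The 36 promoters of the others, from 24 genes, held a median of 19.5 (range 2 to 42). The ranges overlap, and a link between CpG number and level was not tested. GC boxes that overlap one another were counted separately, and a match is one of letters and not of measured binding.

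The 36 genes lie on 17 chromosomes, and a few are neighbours. Sema3d and Sema3a lie 536.5 kb apart on chromosome 5 with no protein-coding gene between them, and Sema3e follows 422.7 kb after Sema3a with 1 gene between. Their levels were unlike, with Sema3a at 10.7 and 10.1 TPM and both neighbours under 1 TPM. Sema3b and Sema3f lie 72.3 kb apart on chromosome 9 with 3 genes between, at means of 1.59 and 5.99 TPM. Plxnb3 and Plxna3 lie 556.6 kb apart on the X chromosome with 23 genes between. By whole-gene level they hold the lowest and the third highest mean of the plexins.

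Other genes of the pathway were nearly all present. Of 46 listed genes, 43 (93.5%) stood at 1 TPM or more in both libraries, against 59.0% of protein-coding genes. Of 13 co-receptors and other partners, 11 passed. The highest were Itgb1, the integrin beta chain that binds Sema7a, at 73.0 and 69.3 TPM in replicates 1 and 2, Cntn2 at 45.1 and 56.5 TPM, and L1cam, the partner of Nrp1, at 38.1 and 35.1 TPM. The lowest was Timd2, a receptor of Sema4a on immune cells, at 0.07 and 0.02 TPM, and Met, a partner of B plexins, was also under 1 TPM.

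Of 21 small GTPases, their regulators and plexin partners, 20 passed. Rac1, which binds plexins, had 205.7 and 206.7 TPM in replicates 1 and 2. Rnd3, needed for cortical neuron migration in the mouse, had 173.8 and 163.2 TPM, and the adaptor Gipc1 had 157.3 and 158.5 TPM. The lowest was Mical2, an enzyme that oxidises actin, at 1.90 and 0.59 TPM. All 12 kinases and cytoskeletal effectors passed. Cfl1, which severs actin filaments, had 2355 and 2343 TPM, Gsk3b, a kinase of collapsin response mediators, had 120.3 and 114.5 TPM, and Pak1 had 80.4 and 78.0 TPM. The lowest of them, the tyrosine kinase Fes, had 2.48 and 2.01 TPM.

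Between the libraries, no well-counted member passed the fold limit, and few genes in general did. Of the 31 members with a mean estimated count of at least 100, 0 were 1.5-fold apart in TPM, against 2.67% of 11967 protein-coding genes at that count (2.26% higher in replicate 1 and 0.409% higher in replicate 2). Nrp2 came nearest, 1.48-fold higher in replicate 1, a log2 ratio of 0.57, or 0.48 after scaling the counts by TMM. Dpysl4 followed at a log2 ratio of 0.48, Plxnb2 at 0.41 and Plxna1 at 0.40, while Sema5a at -0.32 was the lowest. The choroid plexus marker sum was also higher in replicate 1, at 470.4 TPM against 245.7 TPM in replicate 2, and its part in these ratios was not tested.

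The ratios leaned to replicate 1, with 24 of 31 above 0 (77.4%), as did those of all protein-coding genes, 76.1% above 0. The median log2 ratio was 0.14 over the members and 0.11 over protein-coding genes. After TMM scaling these medians were 0.012 and -0.0079, and 17 of 31 members were above 0. The lean of the members was thus close to that of genes in general. The median size of the log2 ratio, in either direction, was 0.20 over the members and 0.14 over protein-coding genes.

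**Figure D5:**
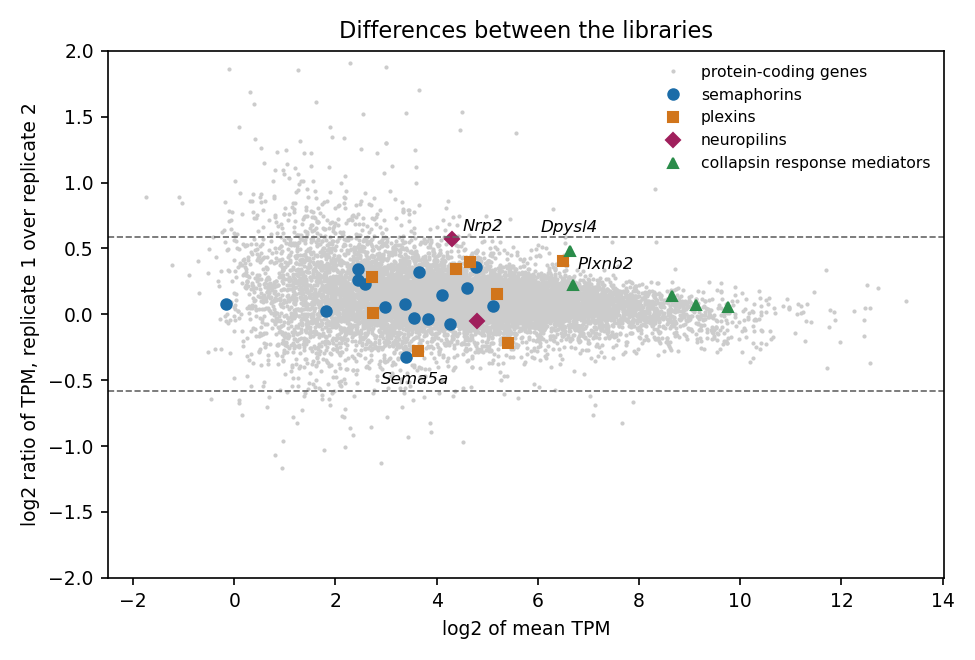
Log2 ratio of TPM of replicate 1 over replicate 2 against log2 of mean TPM, for members and protein-coding genes with a mean estimated count of at least 100. Dashed lines mark 1.5-fold, and 7 genes lie outside the plotted range. All 31 members lie between the dashed lines, with Nrp2 nearest to the upper line and Sema5a lowest.

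Some values share reads with other features. Estimated counts were whole numbers in both libraries, within 0.005, for 33 of the 36 members, and not for Sema4c, Plxna1 and Plxnb1. Exons of these 3 genes and of Plxna4 overlap an annotated gene on the opposite strand. No strand setting is stated in the labels or headers, so it is not known whether reads of the 2 strands were told apart. The opposite genes were low, at 0.92 and 0.95 TPM in replicates 1 and 2 for D430040D24Rik opposite Sema4c, 0.43 and 0.34 TPM for Gm26811 opposite Plxna1, 0.52 and 0.48 TPM for Gm7628 opposite Plxnb1, and 0 for Plxna4os3 opposite Plxna4.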

How the data were processed

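Total RNA longer than 200 bases was sequenced, 1 library per replicate, and both libraries form 1 group. Per the file headers and metadata, the authors made a gene table and a transcript table per library on mm10 with GENCODE M4. An expected count, as deposited, estimates the reads of a gene or transcript and splits shared reads between features. TPM, as deposited, is a level per length scaled to a fixed sum, given both as a point estimate and as a posterior mean. FPKM, as deposited, is a count per length scaled to library size. Lengths are those deposited. No aligner, quantifier version or strand setting is stated in the labels or headers.

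Identifiers were matched to GENCODE M21 on the same assembly, and 42462 of 43346 mouse genes matched. The 884 others entered no comparison of levels. Of the 206 transcripts of the members, 204 matched, and transcript classes come from M21. Means and SDs are over 2 libraries, and class levels are medians over members. Counts were rounded for scaling in R 4.3.3 by TMM (edgeR 4.0.16) and by size factors (DESeq2 1.42.0). Summaries and plots were made with matplotlib 3.10.9, numpy 2.4.6 and pandas 2.3.3 under Python 3.11.15. Values in each library are given for the 3 highest and the lowest member of each class (all where a class has 5 or fewer), for members of a pair and for members 1.5-fold apart at a mean count of 100. Of each pathway group, the 3 highest and the lowest are named, and isoforms where a second transcript reached 20% in both libraries. Met and 7 isoform genes were added after their values were seen. The members, lists, markers and pairs were chosen with earlier results of these data known. Alternatives were other thresholds, pseudocounts, summaries, scalings and count minimums, leaving out each library, and, added after seeing the data, coding transcripts only.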

Additional observations from a re-analysis of the deposited data

How the results depend on the processing

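The count of 31 members at 1 TPM was 33 at 0.5 TPM, 30 at 2 TPM, 30 over coding transcripts only and 31 to 32 with either library left out. Medians over semaphorins, 9.15 TPM, were 6.88 as a geometric mean, 9.94 by posterior mean TPM, 11.0 as TPM over protein-coding genes, 6.73 over coding transcripts, and 8.69 to 8.94 with either library left out. Over plexins the geometric mean was 15.0, over plexins of the B group 11.8 against a median of 20.9, over collapsin response mediators 289. As TPM over protein-coding genes the median was 25.2 for plexins, 28.7 for neuropilins and 483 for collapsin response mediators. The contrast of plexins A and B was 1.11 as a mean over members, -0.50 over members at 1 TPM and 0.18 over coding transcripts. The contrast of membrane-held and secreted semaphorins was 2.81 with a pseudocount of 0.1, 1.58 as a mean over members, 0.57 over members at 1 TPM and 2.07 over coding transcripts. The contrast of collapsin response mediators and receptors was 4.34 over coding transcripts.

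By posterior mean TPM the log2 ratio was 1.26 for Nrp1 over Sema3a, 1.34 for Nrp2 over Sema3f and 1.13 for Plxnb1 over Sema4d. Over coding transcripts it was 2.10 for Nrp2 over Sema3f, 1.15 for Nrp2 over Sema3c, 3.01 for Plxnd1 over Sema3e, 0.97 for Plxnb2 over Sema4c and 1.56 for Plxna2 over Sema6a. It was -0.25 for Plxna3 over Sema5b and -0.00056 for Plxna4 over Sema6a, where the sign differed between replicates 1 and 2. FPKM left the 12 pairs and the ratio of Nrp1 over Nrp2 within their SD. A count minimum of 10 gave 1 member 1.5-fold apart, Sema7a, higher in replicate 2, against 8.65% of protein-coding genes. TMM scaling, DESeq2 size factors and a fold of 2 gave 0. By count share 3 members had a second transcript at 20% (Dpysl3, Dpysl5 and Sema4c). By share of TPM, 8 members had one with either library left out. Beyond what the alternatives' own construction shows, the cause was not tested.

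No paired analysis was possible because there is 1 group. Depth limits the members under 1 TPM, which rest on 3 to 138 estimated counts per library. With 2 libraries an SD is itself uncertain. Bulk tissue gives no cell type for any receptor or ligand, and a ratio of RNA levels says nothing of protein.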
